A study of Homo sapiens with 6 samples.

Results

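The intestinal identity and differentiation genes are 53 protein-coding genes by which gut epithelium is recognised. They were followed through RNA-seq of HCT116 cells, a human colorectal carcinoma line, in the wild type and after knockout of METTL3. The members were chosen by name from intestinal biology, but with the METTL3-KO against WT results of these data already in view, so the values of that contrast bore on the choice. Their changes are therefore given as a description, and no member carries a p-value. All 53 were among the 56638 gene symbols of the count files, and 48 had enough reads to be among the 22452 genes tested. They were divided into 9 gut transcription factors, 17 genes of absorptive enterocytes, some of them shared with liver (hepatic-enterocyte genes), 12 goblet genes, 11 epithelial surface and keratin genes and 4 stem genes.

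The intestinal lining is renewed from stem cells at the base of the crypt. Their daughters become absorptive enterocytes or colonocytes, which carry a brush border of microvilli, or secretory cells such as goblet cells, which make the mucus layer. CDX and HNF4 factors hold the gut programme in place, ATOH1 directs cells to the secretory fate, and keratin 20 marks cells that have left the crypt. Colorectal carcinoma lines keep parts of this programme, and HNF4A targets in enterocytes overlap with those of liver. METTL3 is the catalytic subunit of the complex that writes N6-methyladenosine on mRNA.

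The study compared 3 WT samples with 3 METTL3-KO samples. Both groups were HCT116 cells grown in McCoy's 5a medium with fetal bovine serum, without further treatment. The METTL3-KO cells were 1 monoclonal line, made with a lentiviral CRISPR-Cas9 vector and selected with puromycin, so the knockout cannot be told apart from what is peculiar to that clone. Nothing in the sources used here says that the samples of a group were separate cultures, so p-values measure only the spread between these samples, which may be technical.

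METTL3 (chr14:21966277-21979484 of GRCh37, minus strand) had 841, 682 and 623 reads in WT1, WT2 and WT3 against 219, 169 and 162 in the knockout samples. Its level fell from 30.0 ± 0.724 to 7.28 ± 0.400 CPM (counts scaled to a common library size; mean ± SD, n = 3 per group), or by a log2 value of -2.04 (SE 0.0906), at an adjusted p of 1.59e-07 in edgeR's quasi-likelihood test. Every METTL3-KO sample was below every WT sample. The deposited files name these groups NC and SiM3, which the sources used here do not explain, and the counts alone cannot tell a knockout from a knockdown. The labels' knockout is followed here. Each sample held between 20936091 and 30142144 counts on genes. WT3 and METTL3-KO3 stood apart. Read counts of the first and second samples differed by a chi-square of 2.34 to 2.58 per gene within a group, and those of WT3 or METTL3-KO3 from the others of its group by 8.32 to 23.1. These deviations followed transcript length in opposite directions in them, with a Spearman correlation across 9425 genes of 0.665 for WT3 and -0.602 for METTL3-KO3. Members are therefore given with and without WT3 and METTL3-KO3 where leaving them out changed a call or moved a log2 fold change by over 1.5 times.

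The defining markers of the labelled cell type were present. In WT samples EPCAM was at 514 ± 33.0 CPM, KRT8 at 4119 ± 558 CPM, KRT18 at 544 ± 85.4 CPM, KRT19 at 755 ± 113 CPM, CDH1 at 438 ± 35.2 CPM and VIL1 at 282 ± 2.22 CPM. CDX2 and CDH17, which mark intestinal epithelium more narrowly, were lower, at 7.68 ± 1.90 CPM and 2.34 ± 0.335 CPM. Counts per kilobase of the longest annotated transcript allow levels to be set side by side, and on that scale KRT8 led with 1439 ± 195 CPM per kb. It was followed by LGALS4 (768 ± 66.7 CPM per kb), KRT19 (543 ± 81.6 CPM per kb) and EPCAM (333 ± 21.3 CPM per kb). AGR2, at 274 ± 55.4 CPM per kb, and KRT18, at 261 ± 40.9 CPM per kb, differed by less than their SDs, as did KRT20, at 140 ± 18.8, and KLF5, at 139 ± 9.90 CPM per kb. This order depends on the length used, since per kilobase of the median transcript length AGR2 (694 CPM per kb) and KLF5 (473 CPM per kb) were above EPCAM (457 CPM per kb), KRT18 (385 CPM per kb) and KRT20 (238 CPM per kb). Of the 53 genes, 14 had a mean of 100 CPM or more in WT samples, 12 lay between 10 and 100 CPM, 12 between 1 and 10 CPM, and 15 were under 1 CPM.

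Promoter sequences were taken from RefSeq (GRCh38.p14) for 35 of the 53 genes. The 200 bases before the annotated start are shown for 7 of them, which include genes that were higher in METTL3-KO cells (MUC2, ALPI, CEACAM5, MUC13, KRT20) and genes that were lower (FABP1, REG4), so that the words read by gut transcription factors can be seen in place. The 7 are examples and do not stand for the 35, whose shares with each word are given below. Capitals mark each match, on either strand, to a KLF word (CCACACCC or CCCCACCC), a CDX word (TTTATNG or TTTACNG), an HNF4 word (CAAAGTCCA, CAAAGGTCA or CAAAGTTCA) or a GATA word (AGATAAG or TGATAAG). Each of the 7 genes has 1 start in the table, and coordinates cover the bases shown.
MUC2 (chr11:1074674-1074873, + strand): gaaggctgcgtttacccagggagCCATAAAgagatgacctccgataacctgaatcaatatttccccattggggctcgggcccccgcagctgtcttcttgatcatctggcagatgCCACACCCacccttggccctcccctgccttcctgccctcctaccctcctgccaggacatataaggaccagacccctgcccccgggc
ALPI (chr2:232455953-232456152, + strand): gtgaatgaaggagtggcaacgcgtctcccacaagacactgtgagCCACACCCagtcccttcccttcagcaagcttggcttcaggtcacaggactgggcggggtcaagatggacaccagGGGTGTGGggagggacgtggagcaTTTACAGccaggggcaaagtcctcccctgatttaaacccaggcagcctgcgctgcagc
CEACAM5 (chr19:41708426-41708625, + strand): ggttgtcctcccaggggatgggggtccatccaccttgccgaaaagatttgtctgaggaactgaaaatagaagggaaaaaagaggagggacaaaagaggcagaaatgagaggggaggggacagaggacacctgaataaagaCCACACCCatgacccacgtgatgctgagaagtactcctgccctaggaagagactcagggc
MUC13 (chr3:124934752-124934951, - strand): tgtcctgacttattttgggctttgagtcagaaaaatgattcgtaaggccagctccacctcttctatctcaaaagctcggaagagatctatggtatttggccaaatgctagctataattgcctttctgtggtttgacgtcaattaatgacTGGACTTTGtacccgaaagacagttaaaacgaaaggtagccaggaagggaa
KRT20 (chr17:40885243-40885442, - strand): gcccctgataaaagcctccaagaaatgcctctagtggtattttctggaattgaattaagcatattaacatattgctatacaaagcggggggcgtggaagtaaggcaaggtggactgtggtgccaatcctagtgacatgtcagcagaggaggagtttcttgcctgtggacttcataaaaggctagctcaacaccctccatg
FABP1 (chr2:88128063-88128262, - strand): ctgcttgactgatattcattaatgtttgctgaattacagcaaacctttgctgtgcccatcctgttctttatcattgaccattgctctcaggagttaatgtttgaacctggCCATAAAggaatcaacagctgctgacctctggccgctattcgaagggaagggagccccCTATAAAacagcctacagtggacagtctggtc
REG4 (chr1:119811461-119811660, - strand): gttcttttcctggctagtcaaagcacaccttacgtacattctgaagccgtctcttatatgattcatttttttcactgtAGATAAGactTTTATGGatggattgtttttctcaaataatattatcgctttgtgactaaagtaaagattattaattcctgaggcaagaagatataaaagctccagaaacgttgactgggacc
In these lines MUC2 holds a CDX match on the minus strand at -177 from the start and a KLF match at -86. ALPI holds KLF matches at -156 and, on the minus strand, at -82, and a CDX match at -58. The KLF match of CEACAM5 lies at -60 and the HNF4 match of MUC13, on the minus strand, at -51. FABP1 has CDX matches on the minus strand at -90 and -32, the second of which shares bases with a TATAAA word. REG4 holds a GATA match at -122 and a CDX match at -112. KRT20 has no capitals, which says only that these letters are not in the bases shown.

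Over the whole window of 250 bases before to 50 bases after the start, a KLF word was present in 5 of 35 members (14.3%) and in 13.2% of all 27305 promoters. A CDX word was present in 10 of 35 members (28.6%) against 17% of all promoters. A GATA word was present in 4 members (11.4%, against 4.28%) and an HNF4 word in 2, SLC26A3 and MUC13 (5.71%, against 1.07%). The HNF1 motif was found in SLC26A3 (2.86%, against 0.033%). Of the 18 members with a promoter that were called higher in METTL3-KO cells, 4 held a KLF word (22.2%, against 13.2% of all promoters). A CDX word was in 3 of them (16.7%, against 17%) and a GATA word in none (against 4.28%). Of the 17 other members with a promoter, 1 held a KLF word (5.88%), 7 a CDX word (41.2%) and 4 a GATA word (23.5%). An HNF4 word was in 1 of the 18 (5.56%) and in 1 of the 17 (5.88%). The contrast that split them also bore on the choice of members, and the counts are small. Nothing is read from this split. Where the table gives several starts for a symbol, the first was used. A match is a description of the letters and not a site of binding.

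Of the 48 tested members, 25 passed the adjusted p limit of 0.05 in edgeR and were higher in the knockout (52.1% of them, where 13.3% of all 22452 genes were) and 4 were lower (8.33%, where 13.2% of all genes were). The median log2 fold change of the 48 was 0.40, beside -0.02 over all tested genes. In 29 members every METTL3-KO sample was above every WT sample (60.4%, against 20.2% of all genes), in 6 every METTL3-KO sample was below (12.5%, against 20.7%), and in 13 the groups overlapped. Because the contrast itself bore on the choice of members, nothing is read from these counts. Of the tested members, ALPI reached the minimum of 5 counts through the METTL3-KO group alone, and ISX and APOA1 through the WT group alone. In RNA from whole cultures, fewer cells of a type and less RNA per cell cannot be told apart. Without WT3 and METTL3-KO3, 26 members were called higher, 23 of them shared with the fit to all samples, and 7 lower, 4 of them shared. Calls rose over all genes as well. Of the 21242 genes tested in that fit, 4555 were called higher and 4823 lower, beside 2986 and 2959 of 22452 with all samples. The members newly called were HNF4G, KLF5 and DPP4 (higher) and CDX2, LGALS4 and EPCAM (lower).

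**Figure D1:**
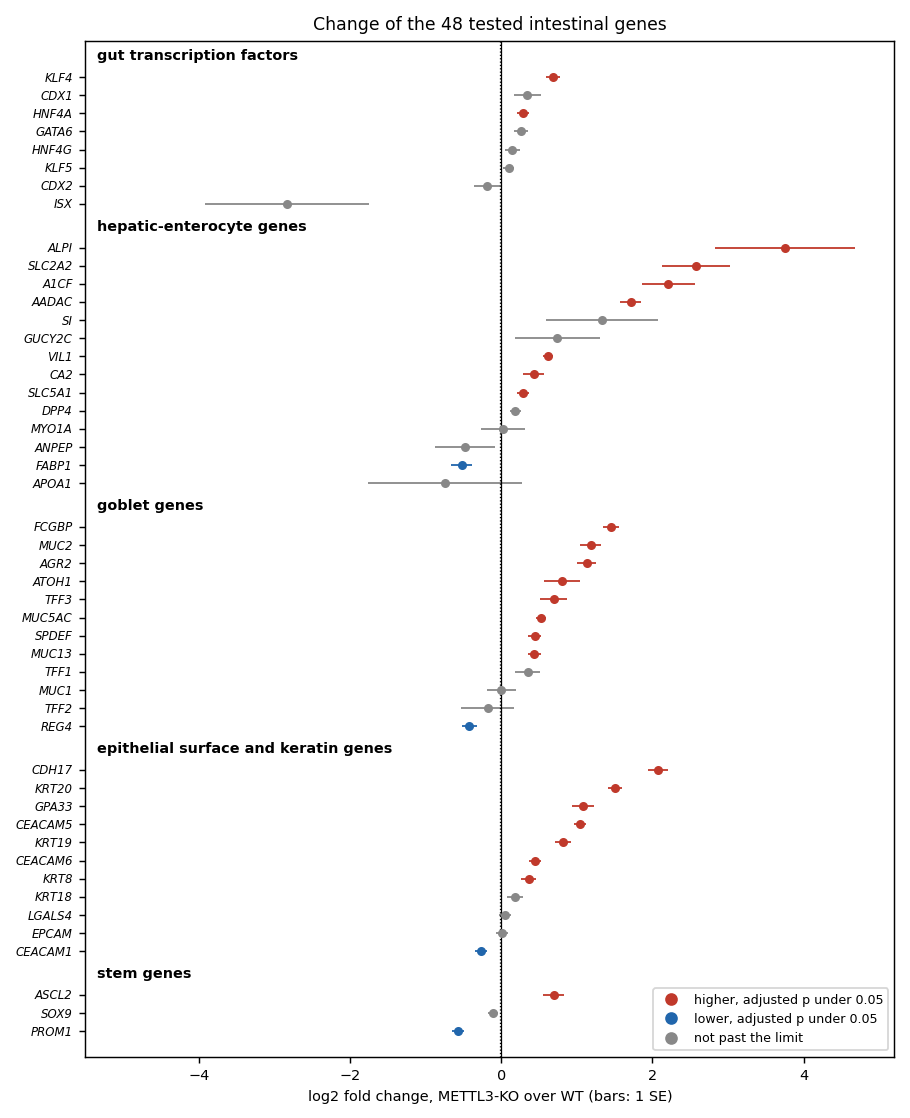
Log2 fold change of METTL3-KO over WT for the 48 tested genes, 1 row per gene within 5 groups, with bars of 1 SE; red and blue mark genes past the adjusted p limit of 0.05, the solid line is 0 and the dotted line the median of all tested genes. Each group holds genes called higher, from 2 of 8 transcription factors to 8 of 12 goblet genes, and ALPI and ISX, which had 1 read in all in one of the groups, have wide bars.

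The 9 gut transcription factors ranged from no read (GATA4) to 465 CPM (KLF5) in WT samples. Of 8 tested, 2 were called higher (25%, beside 13.3% of all genes) and none lower, and their median log2 fold change was 0.20. KLF4, a zinc-finger factor of surface colonocytes and goblet cells, had 479, 358 and 370 counts in WT samples and 760, 580 and 699 in METTL3-KO samples. It changed most of the factors that were called, at 16.9 ± 0.902 against 27.1 ± 2.34 CPM and a log2 fold change of 0.68 (SE 0.0934), and the groups were apart. HNF4A, the nuclear receptor shared by gut and liver, had 1833, 1543 and 1664 counts in WT samples and 2724, 1811 and 2066 in METTL3-KO samples, or 71.0 ± 6.12 and 86.9 ± 4.07 CPM. The groups were apart, but its log2 fold change of 0.29 (SE 0.0818) no longer passed the limit without WT1 (0.25), WT2 (0.28), METTL3-KO1 (0.26) or METTL3-KO3 (0.29).

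Its relative HNF4G, which shares its binding word, had 1142, 955 and 1113 counts against 1564, 1177 and 1061. The groups overlapped, with a log2 fold change of 0.15 (SE 0.103), with WT3 the highest WT sample and METTL3-KO3 the lowest METTL3-KO sample. Without WT3 and METTL3-KO3 the difference was 0.33 and was called. CDX1, a caudal-type homeobox factor of gut, had 97, 70 and 50 counts in WT samples and 107, 78 and 104 in METTL3-KO samples. Its log2 fold change of 0.35 (SE 0.178) was not called. In CPM the groups nearly touched, at 3.533 in WT1, the highest WT sample, and 3.5485 in METTL3-KO2, the lowest METTL3-KO sample. The log2 fold change of CDX1 was 0.09 without WT3 and METTL3-KO3.

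CDX2, the factor that defines intestinal identity in development, had 239, 200 and 117 counts in WT samples against 198, 137 and 178 in METTL3-KO samples. The low WT sample was WT3, and the groups overlapped at a log2 fold change of -0.19 (SE 0.170). Without WT3 and METTL3-KO3 it was -0.45 and was called lower, so its call depends on them. KLF5, a factor of dividing crypt cells, was the most abundant of the group at 465 ± 33.1 CPM in WT samples and 499 ± 16.2 CPM in METTL3-KO samples, and overlapped between groups (log2 fold change 0.10, or 0.18 and called without WT3 and METTL3-KO3). GATA6, which acts in crypt and enterocyte, was at 22.4 ± 1.22 and 26.8 ± 2.38 CPM and was not called (log2 fold change 0.26, or 0.14 without WT3 and METTL3-KO3). ISX, an intestine-restricted homeobox repressor, had 4, 2 and 3 counts in WT samples and 0, 1 and 0 in METTL3-KO samples, a ratio of WT to METTL3-KO of 9.54 (95% interval from counting error alone, 1.32 to 418). It was not called. GATA4, which marks proximal small intestine, had 0 counts in every sample, below the 3 counts over a group that correspond to 0.0420 CPM in WT and 0.0397 CPM in METTL3-KO samples.

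The 17 hepatic-enterocyte genes were split between a few abundant genes and many near the detection limit. Of 14 tested, 7 were called higher (50%, beside 13.3% of all genes) and 1 lower (7.14%, beside 13.2%), with a median log2 fold change of 0.53. VIL1, villin, the actin-bundling protein of the brush border, had 7726, 6433 and 5978 counts in WT samples and 13638, 9195 and 10167 in METTL3-KO samples. Its level was 282 ± 2.22 CPM against 434 ± 17.1 CPM, a log2 fold change of 0.62 (SE 0.0658), and the groups were far apart relative to their SDs. AADAC, an esterase of liver and intestine, had 84, 67 and 48 counts against 266, 208 and 214. That is 2.76 ± 0.442 and 9.13 ± 0.321 CPM, or a log2 fold change of 1.71 (SE 0.138), and each METTL3-KO sample lay above all WT samples.

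The genes that changed most by ratio rested on few reads. A1CF, the RNA-binding partner of the enzyme that edits apolipoprotein B mRNA, had 5, 4 and 6 counts in WT samples and 28, 20 and 27 in METTL3-KO samples (log2 fold change 2.21, SE 0.354). SLC2A2, the glucose transporter GLUT2 of liver and the basal face of enterocytes, had 3, 2 and 4 counts against 26, 20 and 13 (2.57, SE 0.452, or 3.08 without WT3 and METTL3-KO3). For A1CF and SLC2A2 the groups did not overlap, and the METTL3-KO level was still under 1 CPM. ALPI, intestinal alkaline phosphatase, had 0, 1 and 0 counts in WT samples and 6, 6 and 7 in METTL3-KO samples, a ratio of 17.9 with a counting interval of 2.85 to 745. ALPI was called by edgeR but not by DESeq2, which gave it no adjusted p, and its near-identical relatives of the alkaline phosphatase family make its reads uncertain.

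FABP1, the fatty acid carrier of liver and enterocyte, went the other way. It had 418, 235 and 268 counts in WT samples against 289, 198 and 188 in METTL3-KO samples, or 12.7 ± 2.42 and 8.86 ± 0.806 CPM. The highest value was that of WT1 and the groups were apart, at a log2 fold change of -0.52 (SE 0.140). It no longer passed the limit without WT1 (-0.37), METTL3-KO2 (-0.53) or METTL3-KO3 (-0.45). SLC5A1, the sodium-driven glucose transporter SGLT1, was at 32.2 ± 1.10 against 39.5 ± 2.65 CPM and was called at a log2 fold change of 0.29, but not without WT1 (0.30) or METTL3-KO2 (0.24). CA2, a cytosolic carbonic anhydrase of colonocytes, was at 6.85 ± 1.04 against 9.26 ± 1.12 CPM and called at 0.43. The call of CA2 was lost without WT2 (0.46), WT3 (0.32), METTL3-KO1 (0.43) or METTL3-KO3 (0.35), and without WT3 and METTL3-KO3 (0.24).

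The other brush-border hydrolases were not called. DPP4, dipeptidyl peptidase 4, was abundant at 81.4 ± 2.20 and 92.6 ± 1.88 CPM, and its log2 fold change of 0.19 passed the limit only in some settings, among them without WT3 and METTL3-KO3 (0.22). Sucrase-isomaltase (SI) had 1, 2 and 4 counts against 13, 2 and 5, and aminopeptidase N (ANPEP) 25, 21 and 12 against 9, 20 and 14. Both overlapped between groups, and the log2 fold change of SI went from 1.34 to 2.13 without WT3 and METTL3-KO3. GUCY2C, the guanylin receptor, MYO1A, the brush-border myosin, and APOA1, the main protein of high-density lipoprotein, had log2 fold changes of 0.74 (SE 0.563), 0.02 (SE 0.287) and -0.75 (SE 1.02), with overlapping groups. Without WT3 and METTL3-KO3 that of MYO1A was 0.08, and APOA1 was not tested. APOB had no read, and FABP2 (1, 0 and 2 counts against 1, 2 and 0) and SLC26A3, the chloride exchanger of mature colonocytes (0, 1 and 1 against 2, 0 and 0), were not tested.

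The 12 goblet genes were all tested. Of them 8 were called higher (66.7%, beside 13.3% of all genes) and 1 lower (8.33%, beside 13.2%), with a median log2 fold change of 0.49. Of the 2 secretory-lineage factors, ATOH1, which starts the fate, had 40, 25 and 17 counts in WT samples and 55, 42 and 53 in METTL3-KO samples, or 1.12 ± 0.330 and 2.0 ± 0.227 CPM. Its log2 fold change was 0.80 (SE 0.240), and WT3 was the lowest sample. The call of ATOH1 was lost without WT2 (0.79), METTL3-KO1 (0.87), METTL3-KO2 (0.83) or METTL3-KO3 (0.71) and without WT3 and METTL3-KO3 (0.52). SPDEF, which matures goblet cells downstream of ATOH1, was more abundant, at 47.4 ± 3.55 against 64.3 ± 4.26 CPM (0.44, SE 0.0842, or 0.33 without WT3 and METTL3-KO3). It kept its call under every alternative run, all of which reuse these samples.

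The mucins differed among themselves. MUC2, the gel-forming mucin of intestinal goblet cells, had 307, 278 and 318 counts in WT samples and 964, 680 and 559 in METTL3-KO samples. Its level was 12.8 ± 1.91 against 28.9 ± 4.47 CPM, a log2 fold change of 1.18 (SE 0.134), with METTL3-KO3 the lowest of its group and still above all WT samples. Without WT3 and METTL3-KO3 the difference in MUC2 was 1.43. MUC5AC, the gel-forming mucin of stomach and airway that colorectal tumours can express, was higher in level, with 5123, 4257 and 4094 counts against 8141, 5885 and 6613, or 189 ± 2.74 and 273 ± 7.19 CPM. Its log2 fold change was 0.53 (SE 0.0653) and the groups were apart. MUC13, a mucin anchored in the membrane, was at 149 ± 17.9 against 202 ± 0.828 CPM (0.43, SE 0.0872), whereas MUC1, another, was at 2.35 ± 0.458 and 2.37 ± 0.158 CPM with overlapping groups (0.00, or -0.13 without WT3 and METTL3-KO3).

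Among the proteins secreted or made with mucins, FCGBP, which is cross-linked into intestinal mucus, had 226, 162 and 179 counts in WT samples and 685, 501 and 466 in METTL3-KO samples. It was the highest by fold of the goblet genes, from 7.93 ± 0.666 to 21.8 ± 1.70 CPM (log2 fold change 1.46, SE 0.105), and the groups were well apart. AGR2, the disulphide isomerase that folds mucins in the endoplasmic reticulum, had 13199, 12445 and 7771 counts against 28087, 22058 and 26228. That is 465 ± 94.0 against 1017 ± 92.5 CPM, with WT3 the lowest sample, and a log2 fold change of 1.13 (SE 0.127), or 0.91 without WT3 and METTL3-KO3.

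The trefoil peptides, which are secreted beside mucins and lie side by side within 54.868 kb of chromosome 21, differed among themselves. TFF3, the intestinal one, had 116, 83 and 54 counts against 153, 141 and 132, at 3.48 ± 0.863 and 5.70 ± 0.674 CPM. It was called at a log2 fold change of 0.69 (SE 0.180), with WT3 the lowest, and lost its call without METTL3-KO2 (0.61) but kept it without WT3 and METTL3-KO3 (0.51). TFF1 and TFF2, the gastric ones, were not called, at 0.35 (SE 0.167) and -0.18 (SE 0.353), the latter -0.37 without WT3 and METTL3-KO3. REG4, a secreted lectin of enteroendocrine and goblet cells, was called lower, at 39.2 ± 5.65 against 29.3 ± 0.929 CPM (-0.42, SE 0.102). It was called lower under every alternative run, all of which reuse these samples.

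**Figure D2:**
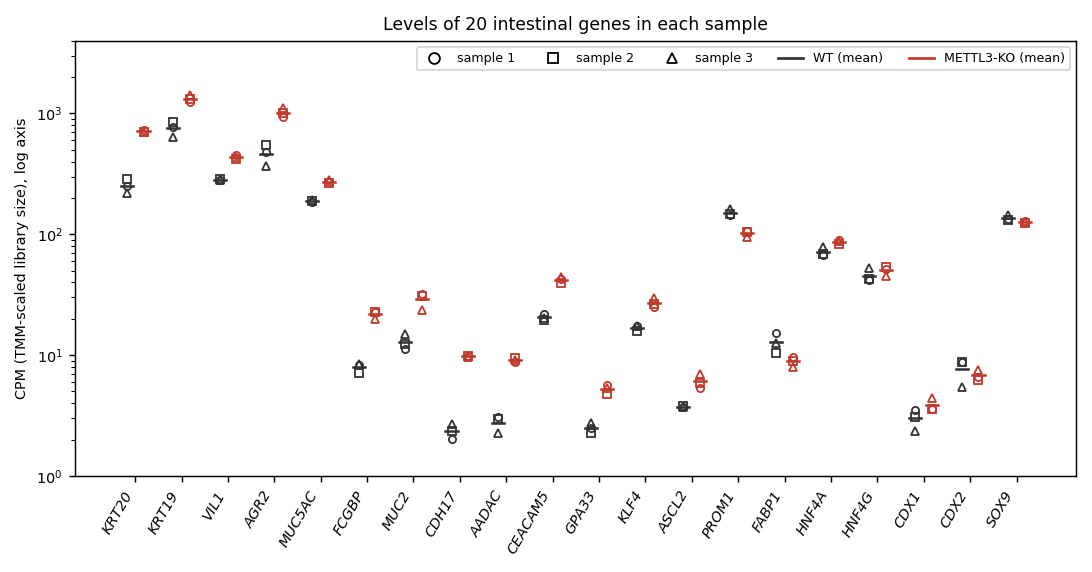
Level of 20 members in each of the 6 samples, in CPM on a log axis, with WT in dark grey and METTL3-KO in red; circles, squares and triangles are the samples 1, 2 and 3 and short lines the group means. KRT20 was at a mean of 252 CPM in WT and 713 CPM in METTL3-KO samples, PROM1 and FABP1 were lower in METTL3-KO samples, and the WT triangle lies lowest for AGR2, CDX1 and CDX2.

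The 11 epithelial surface and keratin genes held the most abundant members. All were tested, 7 were called higher (63.6%, beside 13.3% of all genes) and 1 lower (9.09%, beside 13.2%), and the median log2 fold change was 0.45. KRT20, the keratin of differentiated surface cells, had 6910, 6456 and 4647 counts in WT samples and 22100, 15519 and 16465 in METTL3-KO samples. This was 252 ± 33.9 against 713 ± 17.6 CPM and a log2 fold change of 1.50 (SE 0.0928), with the lowest METTL3-KO sample far above the highest WT sample. KRT19, a keratin of simple epithelia, had 21254, 19382 and 13499 counts against 37540, 28770 and 33654, or 755 ± 113 and 1328 ± 94.4 CPM. Its groups were apart and WT3 was again the lowest, at a log2 fold change of 0.82 (SE 0.103), or 0.65 without WT3 and METTL3-KO3.

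The keratin pair KRT8 and KRT18, partners in the filament of simple epithelium, moved little. KRT8 was at 4119 ± 558 against 5290.3 ± 344 CPM and was called at 0.36 (SE 0.0947). That call was lost without METTL3-KO2 (0.37) or METTL3-KO3 (0.31), and the difference was 0.20 without WT3 and METTL3-KO3. KRT18 was not called at 0.18 (SE 0.107) and was at -0.01 without WT3 and METTL3-KO3. Both genes lie on opposite strands of chromosome 12 and their annotated spans overlap (KRT8 53290971-53343738 and KRT18 53342655-53346690, GRCh37), and since the strand setting of the counting is not given in the sources used here, reads from the shared stretch cannot be assigned to either.

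CDH17, the cadherin of liver and intestine, changed most in this group. It had 55, 53 and 57 counts in WT samples and 297, 217 and 227 in METTL3-KO samples, or 2.34 ± 0.335 and 9.79 ± 0.122 CPM, a log2 fold change of 2.07 (SE 0.135). No sample of either group came near the other group. GPA33, a surface antigen of nearly all colon epithelium, had 69, 51 and 58 counts against 171, 105 and 126 (2.50 ± 0.232 and 5.27 ± 0.454 CPM), and its log2 fold change of 1.08 (SE 0.146) came with groups that were apart.

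The carcinoembryonic adhesion molecules lie in 1 region of chromosome 19. CEACAM5, the carcinoembryonic antigen, had 598, 444 and 429 counts in WT samples and 1275, 875 and 1048 in METTL3-KO samples, at 20.5 ± 1.12 and 42.2 ± 2.38 CPM. The groups were apart at a log2 fold change of 1.04 (SE 0.0840). CEACAM6 was at 72.4 ± 2.08 against 98.7 ± 6.93 CPM (0.45, SE 0.0763), while CEACAM1, which spans the membrane and carries a signalling tail, was lower, at 198 ± 8.98 against 164 ± 12.7 CPM (-0.27, SE 0.0778). The call of CEACAM1 was lost without WT2 (-0.23), METTL3-KO2 (-0.27) or METTL3-KO3 (-0.21). These genes are close in sequence, so reads shared between them were left out or may have been split. LGALS4, a galectin of the brush border, was at 1033 ± 89.7 against 1068 ± 87.9 CPM, and EPCAM, an adhesion molecule of nearly all epithelia, at 514 ± 33.0 against 519 ± 35.5 CPM. Both overlapped between groups, and without WT3 and METTL3-KO3 both were called slightly lower (-0.09 and -0.10).

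The 4 stem genes did not move together. ASCL2, the Wnt-driven factor of crypt base stem cells, had 103, 86 and 79 counts in WT samples and 161, 130 and 165 in METTL3-KO samples, or 3.75 ± 0.0501 and 6.09 ± 0.851 CPM. It was called higher at a log2 fold change of 0.69 (SE 0.140), or 0.56 without WT3 and METTL3-KO3, with groups that were apart. PROM1, the CD133 antigen of stem and progenitor cells, had 3951, 3329 and 3472 counts against 3220, 2299 and 2220, at 151 ± 10.1 and 102 ± 6.62 CPM. Every METTL3-KO sample was below every WT sample, and the log2 fold change was -0.57 (SE 0.0795), or -0.46 without WT3 and METTL3-KO3.

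SOX9, a factor of stem and Paneth cells, had 3704, 2945 and 3073 counts in WT samples and 3900, 2737 and 2961 in METTL3-KO samples. In CPM the groups did not overlap, at 136 ± 7.03 and 127 ± 2.50, but the log2 fold change of -0.11 (SE 0.0702) was not called and was -0.06 without WT3 and METTL3-KO3. OLFM4, an olfactomedin secreted by crypt base cells, had 1, 0 and 0 counts against 0, 1 and 0 and was not tested. Of the 3 tested stem genes 1 was called higher and 1 lower (33.3% each, beside 13.3% and 13.2% of all genes), with a median log2 fold change of -0.11. With 3 genes these shares say little.

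The calls of 19 of the 25 higher members and of 2 of the 4 lower members, PROM1 and REG4, stood in each of the 6 fits that left out 1 sample. In all 14 alternatives together, 18 higher and the same 2 lower members were called. The number of lower members was 2 without METTL3-KO2 or without METTL3-KO3 and 7 without WT3 and METTL3-KO3. Over all genes the lower calls in those fits were 1976, 2550 and 4823. All these fits reuse the samples whose contrast bore on the choice of members. Nothing is read from how many calls persisted.

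**Figure D3:**
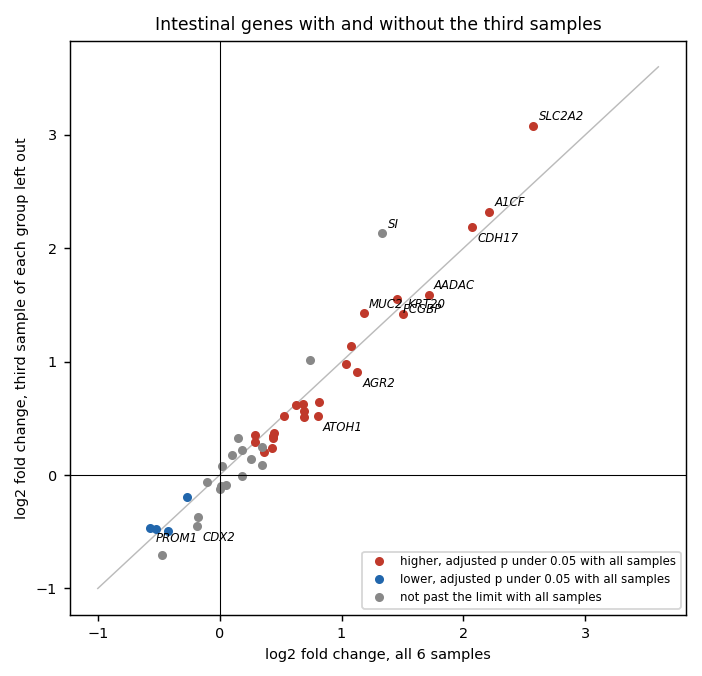
Log2 fold change of METTL3-KO over WT from all 6 samples (horizontal) against the same with WT3 and METTL3-KO3 left out (vertical), for 45 members; ALPI, APOA1 and ISX, with 20 reads or fewer in all, are not plotted. Points follow the grey line of equal values; AGR2 and ATOH1 lie below it, MUC2, SLC2A2 and SI above it, and CDX2 moved from -0.19 to -0.45.

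Genes of the same cell types that are not members were taken from lists written by function, 184 genes in all, and 138 were tested. Of these, 42 rose (30.4%, where 13.3% of all genes did) and 7 fell (5.07%, where 13.2% did) at an adjusted p under 0.05 in edgeR's quasi-likelihood test over all genes. Their median log2 fold change was 0.24. These lists too were written with earlier results of the data known.

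Among mucus genes beyond the members, 10 of 16 tested rose (62.5%) and 1, MUC3A, fell (6.25%), beside 13.3% and 13.2% of all genes (median 0.86). MUC5B, a gel-forming mucin, went from 3.40 ± 0.391 to 19.6 ± 1.83 CPM (log2 fold change 2.53, SE 0.125, adjusted p = 2.61e-07). It lies beside MUC2 and MUC5AC in the mucin cluster of chromosome 11, within 270.58 kb of which the fourth gene, MUC6, was not called (0.33, SE 0.283). ERN2, the stress sensor of the endoplasmic reticulum in goblet cells, rose by 1.85 (adjusted p = 3.07e-07), the membrane mucin MUC17 by 2.15 (adjusted p = 0.00127) and BCAS1 by 1.26 (adjusted p = 2.04e-06), all on the log2 scale.

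Of the further enterocyte and brush-border genes, 13 of 25 tested rose (52%, beside 13.3% of all genes) and none fell (median 0.44). SLC3A1, the heavy subunit of the dibasic amino acid transporter, rose by 1.02 on the log2 scale (adjusted p = 8.12e-04), the aminopeptidase ENPEP by 0.84 (adjusted p = 0.00595), the actin-binding MISP by 0.84 (adjusted p = 3.36e-05) and the microvillar bundler ESPN by 0.80 (adjusted p = 6.27e-04). At 0 in every sample were APOA4, TMPRSS15 and TMIGD1. Of 15 colonocyte genes tested, 4 rose (26.7%) and 1 fell (6.67%), beside 13.3% and 13.2% of all genes. Those that rose included CEACAM7, a surface protein of the mature colonocyte, by 1.83 (adjusted p = 2.66e-06). CLCA4 rose by 1.34 (adjusted p = 0.00650) and the sodium exchanger SLC9A2 by 0.86 (adjusted p = 0.00164), while the sulphate transporter SLC26A2 fell by 1.14 (adjusted p = 7.08e-04). The colonocyte markers AQP8 and MS4A12 had no read.

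Of the further gut transcription factors 3 of 16 tested rose (18.8%) and none fell, with a median of 0.03. PRDM1, a repressor involved in maturation of the gut after birth in mice, rose by 1.55 (adjusted p = 6.07e-05), the vitamin D receptor VDR by 0.94 (adjusted p = 1.58e-05) and FOXA3 by 0.39 (adjusted p = 0.00677). Of 14 liver genes tested 2 rose and 2 fell (14.3% each way, close to the 13.3% and 13.2% of all genes). TM4SF4, a tetraspanin-like protein of liver and gut, rose by 1.18 (SE 0.100, adjusted p = 8.72e-06) and SERPINA1, alpha-1-antitrypsin, by 0.29 (adjusted p = 0.0151), whereas APOC1 fell by 1.27 (adjusted p = 0.0105) and the retinol carrier RBP4 fell by 1.07 (adjusted p = 3.59e-04). ALB, AFP, APOA2, FGA and FGG, which define hepatocytes, had no read in any sample. The 22 liver genes together were at 623 to 799 CPM in WT and 1217 to 1318 CPM in METTL3-KO samples, of which TM4SF4 was 375 ± 56.4 and 852 ± 41.5 CPM. The SERPINA1 call was lost without METTL3-KO1 (0.30) or METTL3-KO2 (0.30).

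Of 14 further stem and crypt genes tested 3 rose (21.4%) and 2 fell (14.3%), beside 13.3% and 13.2% of all genes. LGR5, the receptor that marks crypt base stem cells, had 233, 198 and 207 counts against 117, 62 and 82 and fell by 1.39 (SE 0.139, adjusted p = 2.72e-05). LRIG1, a growth factor receptor inhibitor of stem cells, fell by 0.37 (adjusted p = 0.00685), while the Wnt target AXIN2 rose by 0.50 (adjusted p = 8.99e-04) and HOPX by 0.77 (adjusted p = 0.00455). Of the enteroendocrine, Paneth and tuft genes 2 of 13 tested rose (15.4%) and 1 fell (7.69%), beside 13.3% and 13.2% of all genes. The lysozyme gene LYZ fell by 0.56 (adjusted p = 8.37e-05). TRPM5, a tuft cell channel, rose by 0.55 (adjusted p = 0.0252), a call lost without WT1 (0.55), METTL3-KO2 (0.59) or METTL3-KO3 (0.43) and without WT3 and METTL3-KO3 (0.33). MMP7 rose by 0.34 (adjusted p = 0.0484), with overlapping groups and a call lost without WT1 (0.32), WT3 (0.25), METTL3-KO2 (0.28) or METTL3-KO3 (0.32). The Paneth defensins DEFA5 and DEFA6 had no read.

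Among further epithelial genes 3 of 14 tested rose (21.4%, beside 13.3% of all genes) and none fell (median 0.05). The type I keratin KRT23 rose by 1.69 (adjusted p = 4.11e-06) and E-cadherin, CDH1, by 0.23 (adjusted p = 0.0396). The CDH1 call was lost without WT1 (0.21), WT2 (0.20), METTL3-KO1 (0.21) or METTL3-KO2 (0.23).

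Markers of other cell types were low but present. The summed level of 9 fibroblast markers was 4.92 to 6.96 CPM in WT and 8.99 to 9.95 CPM in METTL3-KO samples, with COL1A2, COL3A1 and PDGFRA at 0. Of 4 tested 1 rose, LUM, from 0.393 ± 0.156 to 2.23 ± 0.302 CPM (log2 fold change 2.46, SE 0.287, adjusted p = 8.12e-05). Of 6 endothelial markers, PECAM1 and KDR were at 0 and the sum was 2.66 to 3.89 CPM against 4.38 to 5.32 CPM. Nearly all of it was TEK, which rose by 0.62 (adjusted p = 0.0205) and lost its call without WT1 (0.55), WT2 (0.51) or METTL3-KO2 (0.58). Of 9 leukocyte markers MS4A1 was at 0, and without LYZ, which gut epithelium expresses itself, the other 8 summed to 5.72 to 6.99 CPM in WT and 6.60 to 10.7 CPM in METTL3-KO samples. Members such as CDH17, AADAC, GPA33, TFF3, ATOH1 and ASCL2 were themselves below 10 CPM, in the range of these sums or lower, and the part of other cell types in any change was not tested.

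**Figure D4:**
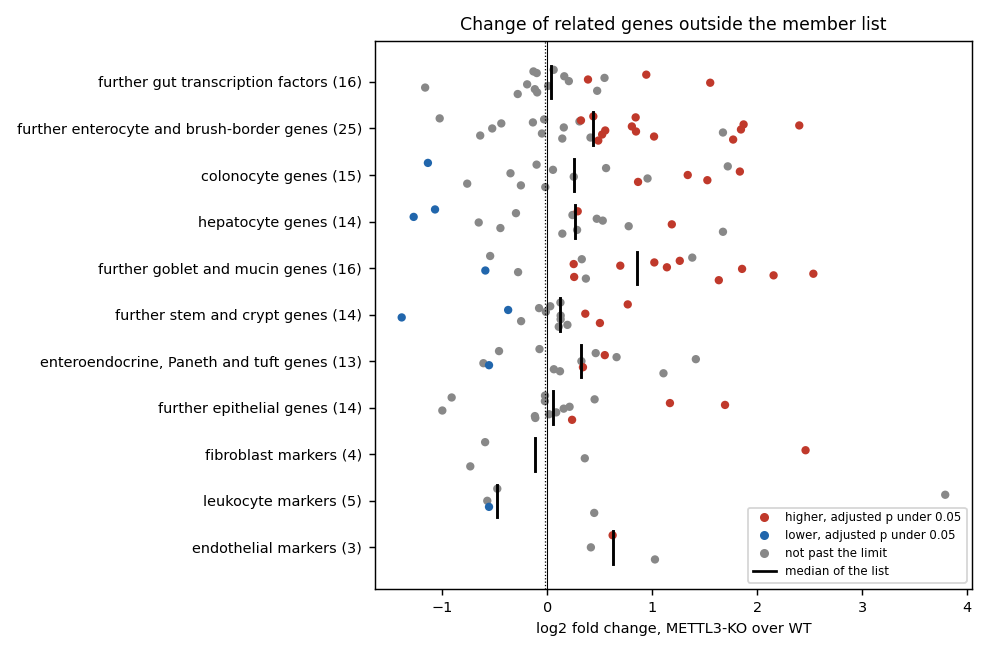
Log2 fold change of METTL3-KO over WT for tested genes outside the member list, 1 point per gene in 11 lists with the number tested in brackets; colour marks the adjusted p limit, thick lines the median of each list and the dotted line the median of all tested genes. The medians of the goblet and mucin list (0.86) and of the enterocyte and brush-border list (0.44) lie to the right, and that of the further transcription factors is near 0.03.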

How the data were processed

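RNA-seq read counts of 3 WT and 3 METTL3-KO HCT116 samples were used. For the alignment to hg19 the authors used TopHat 2.0.11 with transcripts of Ensembl GRCh37, and htseq-count (union mode) for the counting. What they deposited are unnormalized counts for each gene symbol, without reads shared by several genes or places. The names of the deposited files call the WT samples NC (numbered 1, 3 and 4) and the METTL3-KO samples SiM3, terms not explained in the sources used here; groups and numbers follow the labels.

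A gene was tested if its counts summed to 5 or more in either condition. The 22452 such genes were tested with edgeR 4.0.16 (R 4.3.3; TMM normalization, two-sided quasi-likelihood test, Benjamini-Hochberg adjustment over all of them, limit 0.05). SEs were obtained by dividing a log2 fold change by the square root of its F statistic. CPM use TMM-scaled library sizes, and intervals cover counting error only. The test was tried first on simulated counts. Annotation was GENCODE on GRCh37, which matched 33872 of 56638 symbols.

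The members and all lists were chosen with earlier results of these data known. Counts per sample are given for members called with a log2 fold change of at least 0.5 in size, for CDX1, CDX2, HNF4A, HNF4G and the stem genes, and test values for METTL3 and for up to 4 called genes per further list, those with the largest change at a mean log2 CPM of at least 0. Other genes were named after their values were seen. The alternatives were DESeq2 1.42.0, RLE normalization, the filterByExpr filter, a filter of 1 count only, a replicate block, spline offsets for transcript length and GC content alone and with the block, each sample left out in turn and, added after seeing the data, WT3 and METTL3-KO3 left out together. The result of 1 further gene is not reported here.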

Additional observations from a re-analysis of the deposited data

How the results depend on the processing

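Deviations of same-numbered WT and METTL3-KO samples from their group means correlated at -0.585, -0.390 and -0.783. They also followed transcript length with opposite signs within each number (Spearman -0.602 in WT1 and 0.504 in METTL3-KO1, for example). The correlations therefore cannot tell whether the samples were handled in pairs. With the replicate block, 1810 genes were called higher and 1719 lower over all genes, where 2986 and 2959 were without it, and 20 members were called higher and 3 lower. The members that lost their call with the block were HNF4A, SLC5A1, CA2, ATOH1, KRT8 and CEACAM1. Among the further genes named above, FOXA3, SERPINA1, LRIG1, TRPM5, MMP7, CDH1 and TEK lost theirs. DESeq2 called 24 members higher and 4 lower, beside 2907 and 2709 of all 22452 genes. Without WT3 and METTL3-KO3 4555 genes were called higher and 4823 lower, with 7 members and 16 further genes among the lower ones. Leaving out 1 sample gave 2 to 5 lower members and 7 to 12 lower further genes, and offsets for length and GC content gave 11 of the latter. Over all genes, lower calls ran from 1976 to 3793 with 1 sample left out and were 3783 with the offsets. The median of the hepatic-enterocyte genes was 0.37 with filterByExpr, which drops its least abundant genes, 0.62 without WT3 and METTL3-KO3 and 0.46 to 0.62 when 1 sample was left out; that of the transcription factors was 0.26 with filterByExpr. In the fits without WT1, without WT3, or without WT3 and METTL3-KO3, the hepatic-enterocyte median was the value of VIL1 (0.62). VIL1 was also at 0.62 with all samples. With WT2 left out, that median was the value of CA2 (0.46, beside 0.43 with all samples). The cause of the other shifts was not tested. LGALS4 and EPCAM, not called with all samples (0.05 and 0.01), were called lower without WT3 and METTL3-KO3 (-0.09 and -0.10). No called member changed direction under any alternative run, but these runs reuse the samples whose contrast bore on the choice of members. Nothing is read from that. Changes of genes under 1 CPM rest on few reads and their size is poorly known.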
